A study of Macaca fascicularis with 8 samples.

Results

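Regions with a peak in heart and lung, and in none of the libraries of 5 further organs, were described here from single-cell ATAC-seq of healthy adult cynomolgus monkeys. The peak lists of colon, heart, kidney, male liver, lung, spleen and uterus were merged wherever they overlapped by at least 1 bp, and a region was kept when it held a peak of heart and a peak of lung and no peak of the remaining organs. This left 1637 regions of 245443, which are called heart-lung regions below. A female animal gave heart, lung, colon, uterus and a liver library that the choice did not use, and a male animal gave the spleen, kidney and male liver, all labelled Normal, with no treatment named. Each library is 1 organ of 1 animal, so organ and library cannot be told apart. Between organs of the female and of the male animal, the animal cannot be told apart from these either. No test between organs was possible. Intervals on counts and on shares of cells cover counting error only, and intervals on shares of regions treat regions as independent draws, which they are not.

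In ATAC-seq the Tn5 transposase cuts and tags DNA that is not covered by nucleosomes, and a peak is a stretch where many cuts fall. Peaks lie at promoters, which are open in most cells, and at distal elements such as enhancers, which are often open in a single cell type. An organ holds many cell types, and heart and lung share several, among them the endothelial cells that line blood vessels, fibroblasts and resident immune cells. A peak called on a whole organ does not say which of its cells carry it. EGFL7 encodes a protein that endothelial cells release, and its window was used below to divide the cells of each library.

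The heart library held 5220 barcodes with at least 1000 counts and 52904154 counts in all, and the lung library 13117 barcodes and 102697781 counts. The median barcode had 7077.5 counts in heart and 6595 in lung. A count is 1 cut end in a peak, and since most fragments gave both of their ends, intervals were set on counts divided by 2. The barcode sequences that heart and lung had in common numbered 104, or 1.83% of the smaller list, within the range of 0.806% to 2.99% over all pairs of libraries. The organ labels were not checked against a panel of marker genes, because gene positions in the assembly of the peaks were not used here.

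Of the 21 pairs of organs, heart and lung ranked 8th by the number of regions found in that pair alone. Colon with spleen (13103 regions) and kidney with male liver (11140 regions) held several times as many, and lung with male liver (1754), kidney (1736) and spleen (1726) held similar numbers. Peaks of heart and lung came together in 40310 merged regions, and the heart-lung regions were 4.06% of these, which was the 5th highest share among the pairs. Most regions open in both organs were open elsewhere too, since 20204 had a peak in all 7 organs. Among the regions with exactly 1 further organ, spleen was that organ in 661, male liver in 541, kidney in 460, colon in 420 and uterus in 165. The libraries held unequal numbers of regions, from 34272 in uterus to 84564 in spleen and 106703 in male liver. These counts and the ranks by number are not corrected for that. The heart-lung regions made up 2.51% of all heart regions and 2.08% of all lung regions.

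The heart-lung regions were short, with a median width of 588 bp and a range from 54 to 4109 bp. Regions of heart alone had a median of 358 bp, regions of lung alone 391 bp, regions of other pairs 567 bp and regions of all 7 organs 2018 bp. The peaks inside them were of the same size in both organs, 440 bp at the median in heart and 436 bp in lung. In nearly all cases 1 peak of each organ was involved, 1631 regions holding a single heart peak and 1633 a single lung peak. For at least 3 in 4 regions the shorter peak lay wholly inside the longer.

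The choice depends on where peaks end, and some regions lay close to its limits. The heart and lung peaks shared at most 10 bp in 41 regions and at most 50 bp in 146. At chr1:168485239-168485589 they shared 1 bp, and the same overlap was seen at chr2:2960509-2960569. The lung peak was 1 bp wide in both, against heart peaks of 351 and 61 bp, and counts of an organ exist only inside its own peaks. So nothing was read from their lung counts, which were 0 and 2 beside 177 and 27 in heart. On the other side, a peak of another organ lay within 100 bp of 20 regions and within 1000 bp of 349, against a median distance of 2801 bp. The nearest were a kidney peak 15 bp from chr14:101683256-101683457 and a peak of male liver 19 bp from chr2:106706697-106707851. Just outside the choice, a heart peak at chr5:23445065-23445333 ended 3 bp before a lung peak, and 98 pairs of neighbouring heart-alone and lung-alone regions were separated by at most 500 bp.

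The regions were spread over chromosomes 1 to 20 and X, with 145 on chromosome 1, 116 on chromosome 4 and 113 on chromosome 6. As a share of the regions with both a heart and a lung peak they were most frequent on chromosome 18 (6.40%), chromosome 6 (5.91%), chromosome 17 (5.79%) and chromosome 5 (5.60%). Chromosome 19 had the lowest share, 1.13% or 22 regions. That chromosome held 4.98% of the other regions with both peaks and 6.83% of the regions open in all 7 organs.

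Counts of a region were summed over the peaks of the organ in it and given as CPM, counts per 1000000 counts of the library. Cuts outside the organ's own peak were not counted, so a level rises with the width of that peak. By this sum the heart-lung regions were low in both organs. The rule chose them by peaks of these libraries, so their levels are given as a description. In heart the median region had 4.88 CPM, with quartiles of 2.97 and 8.26 and a maximum of 48.1. In lung the median was 3.34, with quartiles of 1.95 and 6.04 and a maximum of 47.4. Regions of heart alone (3.76) and of lung alone (2.85) were similarly weak, whereas regions of all 7 organs had medians of 26.0 in heart and 25.2 in lung. The peaks of the last were also longer, 1245.5 bp at the median in heart and 1499 bp in lung, and per 1000 bp of peak the gap was smaller. In heart the median was 11.2 CPM per 1000 bp for heart-lung regions, 10.8 for regions of heart alone and 18.5 for regions of all 7 organs. In lung these were 7.70, 7.72 for regions of lung alone and 14.7. All heart-lung regions together took 1.07% of the counts of heart and 0.802% of those of lung. A count was found in 2.93% of heart cells for the median region and in 16.7% for the one found in most cells, and in lung these shares were 1.56% and 13.9%. With no count in the kept barcodes were 9 regions in heart and 3 in lung.

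Levels in heart and lung were weakly related. Over the 1288 regions with at least 100 counts in each organ, the log2 CPM of heart and lung had a Pearson r of 0.15 and a Spearman rho of 0.116. Per base of each organ's own peaks these were 0.16 and 0.202. Over the 35673 other regions with peaks and at least 100 counts in both organs they were 0.78 and 0.770 for CPM, and 0.80 and 0.727 per base. These points share both libraries and the choice of the regions, and the values are descriptive. The other regions include those of all 7 organs, with medians of 26.0 CPM in heart and 25.2 in lung. Medians of the heart-lung regions were 4.88 and 3.34, so the 2 sets cover unequal levels. The part of this in the low r was not tested. A level over a whole library does not tell apart more cells with the region open and a more open region in each cell. The median ratio of heart to lung was 1.44, and it was also 1.44 when levels were taken per count in the regions of all 7 organs. Heart was at least 2-fold above lung in 464 regions (36.0%), where 18.6% of all regions with peaks and at least 100 counts in both organs were so. Lung was at least 2-fold above heart in 146 regions (11.3%), against 9.01%, and 678 regions lay between these limits. The ratio of levels went with the ratio of peak widths (r of their log2 values 0.95), also over the other regions (0.93). Per base the median ratio was 1.47, against 1.29 over the other regions with both, so much of this tilt was shared by them. Heart was at least 2-fold above lung per base in 169 regions (13.1%), against 8.31% of all regions with both. Lung was so above heart in 11 (0.854%), against 0.36%.

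**Figure D1:**
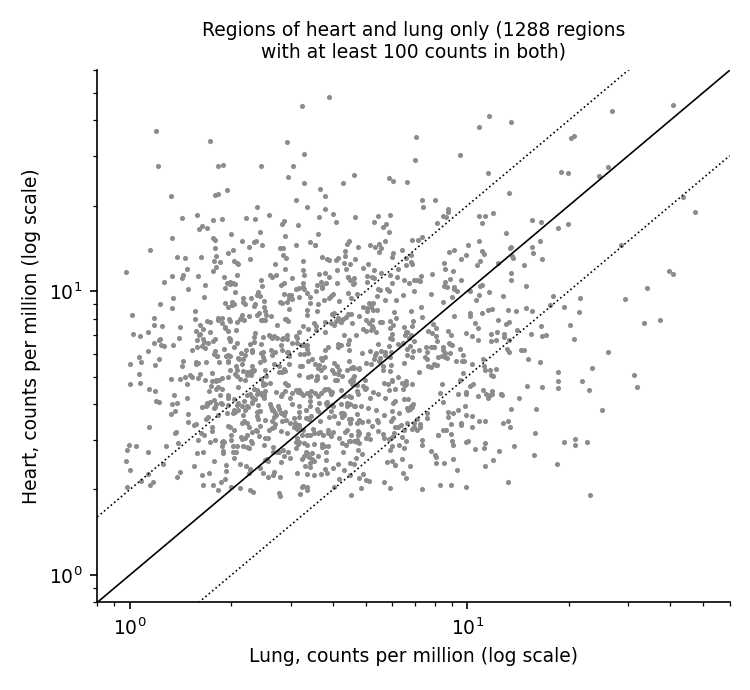
Each point is 1 heart-lung region, plotted by its CPM in lung (x axis, log scale) and in heart (y axis, log scale) for the 1288 regions with at least 100 counts in both organs. The solid line marks equal levels and the dotted lines a 2-fold difference; 464 points lie above the upper dotted line and 146 below the lower one. Levels are sums over each organ's own peaks; per base 169 and 11 regions differed 2-fold.

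Among these 1288 regions, the one most tilted to heart was chr9:75040668-75042184, a heart peak of 1517 bp with a lung peak of 179 bp inside it. It had 36.6 CPM in heart (95% interval 34.4 to 39.0) and 1.2 in lung (0.917 to 1.54), a ratio of 30.6. A count was seen in 13.6% of heart cells and 0.8% of lung cells. The next were chr1:65557892-65559998 with 27.5 in heart and 1.21 in lung, chr1:130236610-130238610 with 33.8 and 1.73, and chr3:84386465-84388164 with 21.5 and 1.32. In each of these 4 the lung peak covered only a part of a much longer heart peak, and the counts covered these unequal widths. Per base of own peak the ratios of heart to lung were 3.61, 2.45, 3.04 and 2.31, in the same order. Among the same regions, the opposite tilt was largest at chr9:111535063-111536255, a lung peak of 1193 bp with a heart peak of 172 bp, which had 1.91 CPM in heart (1.42 to 2.51) and 23.1 in lung (21.8 to 24.4). It was followed by chr1:160216312-160217268 with 2.95 in heart and 22.6 in lung, chr7:94084423-94086154 with 2.46 and 18.5, and chr13:8102163-8103246 with 2.87 and 20.9. The heart peaks of these were again the shorter, and per base the 4 ratios were 0.573, 0.401, 0.913 and 0.390.

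A smaller group had high summed levels in both organs. Ranked by the lower of the 2 levels, the first was chr18:59185230-59189041, with 45.1 CPM in heart (42.6 to 47.7) and 40.8 in lung (39.0 to 42.5). It held a count in 16.7% of heart cells and 13.1% of lung cells. Then came chr3:35596484-35599545 with 43.1 in heart and 26.9 in lung, chr10:18086528-18090636 with 27.3 and 26.1, and chr20:68383455-68387142 with 25.5 and 24.6. The last lay 47717 bp from the nearest peak of another organ. These 4 were also among the wider regions, between 3062 and 4109 bp, and chr10:18086528-18090636 was the widest of all. Per 1000 bp of own peak they were less apart from the rest. In heart and lung, chr18:59185230-59189041 had 15 and 12.5 CPM per 1000 bp and chr3:35596484-35599545 15.2 and 12, above the medians of 11.2 and 7.70 given above. Values of 10.2 and 6.35 at chr10:18086528-18090636 and of 10.8 and 7.11 at chr20:68383455-68387142 were below these medians. The ranking went on with chr11:124038799-124040424 (21.5 in heart and 43.6 in lung), chr17:93867256-93869219 (35.2 and 20.7), chr5:120979033-120980733 (34.7 and 20.3) and chr1:59493528-59496048 (26.0 and 19.9). Per 1000 bp these 4 had between 11.9 and 22.9 in heart and between 12.1 and 26.8 in lung.

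How many cells held the counts of a region was measured without any clustering as the number of cells with a count over the number that would have one if the fragments of the region were dealt out in proportion to the depth of each cell. Values under 1 mean that fewer cells held a count than under such a deal. For the heart-lung regions the median was 0.943 in heart (quartiles 0.914 and 0.970) and 0.957 in lung (0.935 and 0.974). All regions of the libraries had medians of 0.95 and 0.957. The measure moves with the number of counts, and among regions of 200 to 400 counts the values were 0.945 against 0.952 in heart and 0.966 against 0.971 in lung. At low counts the measure stays near 1 even for regions that are absent from whole clusters, so these medians do not tell whether the heart-lung regions were as concentrated as others. Values below 0.8 were reached by 26 of 1422 regions in heart and by none of 1472 in lung. The matching shares over all regions are not given here, so these counts are not set against a background.

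Ranked by the higher of the 2 organs' values, the lowest were chr4:7759252-7760836, with 0.828 in heart and 0.814 in lung, chr10:18086528-18090636, with 0.832 and 0.814, and chr16:71636656-71640177, with 0.789 and 0.837. The last had the highest lung sum of the heart-lung regions, 47.4 CPM over a lung peak of 3522 bp, which is 13.4 per 1000 bp. Its lung level reached 141 in cluster 4 and 110 in cluster 2 and was between 3.87 and 16.7 in clusters 3, 5 and 7 to 13. Ranked by the lower of the 2 values, the highest were chr9:26372997-26373300 (1.01 in heart and 1.01 in lung), chr13:15385026-15385279 (1.0 and 1.0) and chr8:72697198-72697512 (1.0 and 1.0), with between 110 and 227 counts in either organ. A value near 1 did not mean an even use of clusters, since chr9:26372997-26373300 had no count in heart clusters 1, 3, 5, 8, 10 and 11. Across the 1288 regions the values of the 2 organs had an r of 0.22 and a rho of 0.180, descriptively.

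To ask which cells carried the heart-lung regions, the cells of each library were clustered on regions with a peak in all 7 organs, none of which is a heart-lung region, after removal of 272 likely doublets in heart and 1720 in lung. Heart gave 11 clusters and lung 13, which are called by number. Clusters in which the EGFL7 window had at least 2 times the value of the library were called EGFL7-high. The heart peaks of that window lay between 1772838 and 1827298 on chromosome 15. In heart the window had 524 CPM, and clusters 5 (1524) and 10 (1435), with 682 cells in all, were EGFL7-high. In lung it had 487, and clusters 3 (1184), 9 (1874) and 10 (1279), with 2942 cells, were EGFL7-high. Heart clusters 1 (804) and 3 (684) were above the value of the library but under the limit, and counts with these included are given where they differ. The heart-lung region chr15:1812052-1813042 lies in the EGFL7 window itself and was left out of what follows, as were all regions there. It had 12.9 CPM in heart and 3.90 in lung.

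The heart-lung regions were unevenly used by the clusters. Their sum was between 10359 and 12940 CPM in heart clusters 1, 3, 4, 5, 6, 7 and 10, and lower in cluster 2 (8093), cluster 8 (6541), cluster 9 (2660) and cluster 11 (1492). In lung the highest sums were in clusters 2 (12226), 10 (11712), 3 (10727) and 4 (10645), and the lowest in clusters 5 (2183), 11 (1516), 7 (1253) and 12 (1065). Both EGFL7-high and other clusters were thus among the highest in each organ. Lung clusters 5 and 11, where these sums were low, had the highest sums for the regions that lung shared with spleen alone, at 17143 and 13321 CPM. The low sums in heart clusters 9 and 11 and lung clusters 7 and 12 were not particular to the heart-lung regions. Regions of heart alone were also lowest in heart clusters 9 (9804) and 11 (7440), and regions of lung alone in lung clusters 7 (8756) and 12 (7767).

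**Figure D2:**
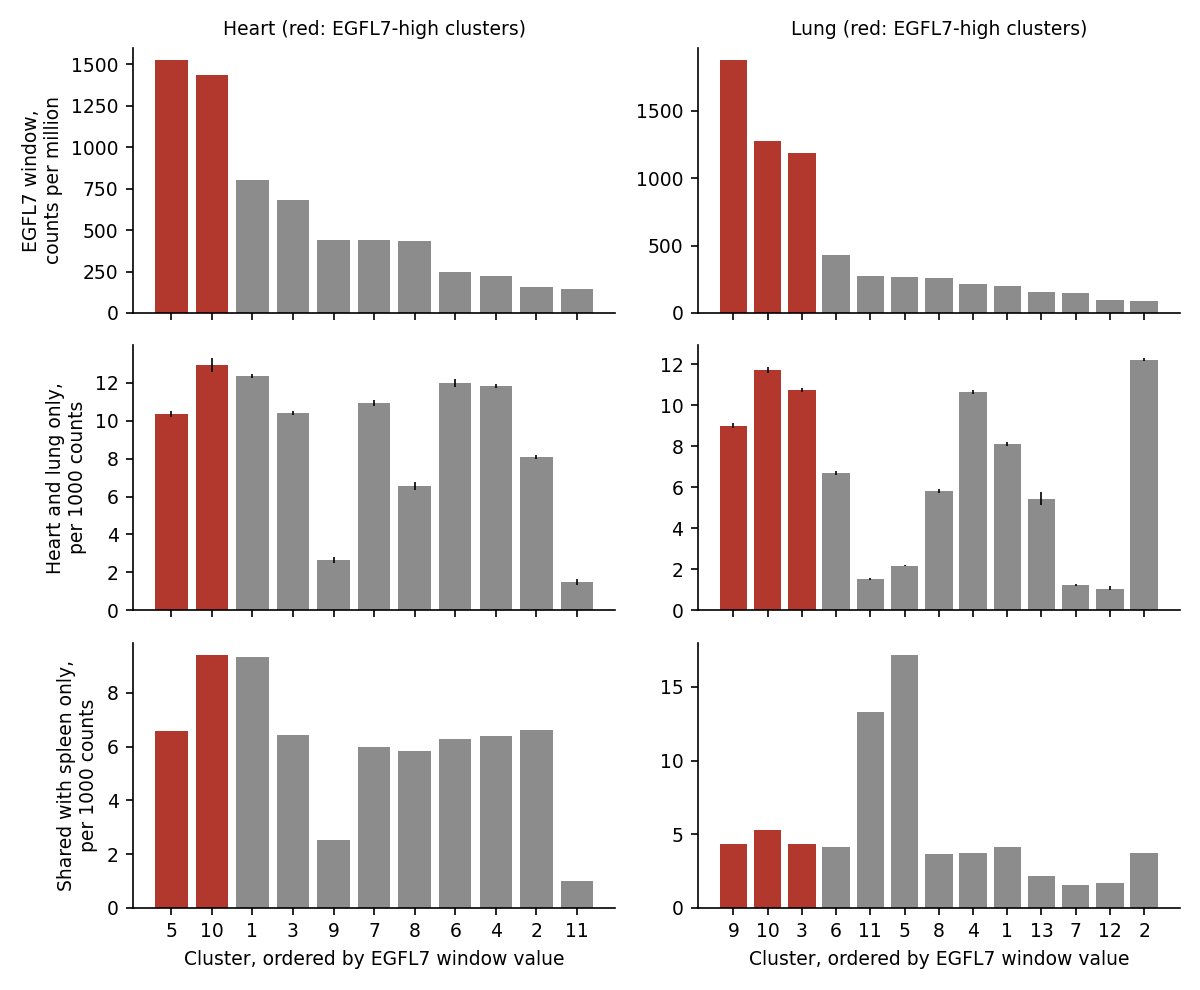
Bars show, for the clusters of heart (left) and lung (right), the CPM in the EGFL7 window (top), the counts in heart-lung regions per 1000 counts (middle, error bars are 95% Poisson intervals) and the counts in regions that the organ shared with spleen alone per 1000 counts (bottom). Red bars are EGFL7-high clusters; the heart-lung regions were high in red and in grey clusters of both organs, whereas the regions of lung and spleen stood out in lung clusters 5 and 11.

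The same was seen when each region was assigned to the cluster where its level was highest. In lung, cluster 2 was highest for 342 of 1420 regions (24.1%), cluster 10 for 286 (20.1%) and cluster 3 for 229 (16.1%). The shares for the other regions of the lung library were 13.3%, 7.04% and 5.26%. No heart-lung region had its highest level in lung cluster 7, where 8.11% of the other regions did. In heart, cluster 10 was highest for 224 of 1376 regions (16.3%), cluster 4 for 216 (15.7%), cluster 1 for 204 (14.8%) and cluster 3 for 195 (14.2%). The shares for the other heart regions were 10.1%, 11.4%, 6.78% and 7.74%. Heart cluster 11 was highest for 1 region (13.9% of the other regions) and cluster 9 for 24 (1.74% against 9.70%). The cluster with the highest EGFL7 window value in each organ showed no excess. Heart cluster 5 was highest for 46 regions (3.34%) and lung cluster 9 for 51 (3.59%). Neither share was above that of the other regions of its library. These other regions include those of all 7 organs, whose sums were highest in heart cluster 11 (894223 CPM) and lung cluster 7 (803700). Sums of regions of lung alone were also highest in lung cluster 2 (112982), and of heart alone in heart cluster 4 (94036). The shares in these 4 clusters are therefore not read as particular to the heart-lung regions.

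Each region with at least 100 counts in the clustered cells was then given a fold, its CPM in the EGFL7-high clusters over those in the other cells. In lung, 572 of 1420 heart-lung regions (40.3%) were at least 2-fold higher in EGFL7-high clusters, where 14.6% of all lung regions were. The share was 10.6% for regions of lung alone and between 6.64% and 16.6% for the regions lung shared with 1 of the other 5 organs alone. At most 0.5-fold were 694 heart-lung regions (48.9%), near the 48.8% of all lung regions, although 85.7% of the regions of lung alone were this low. Without regions that overlap a female liver peak the low share was 56.6%, against 77.3% of all such regions, and with only peaks that have a count in 1% of cells it was 36.9% against 48.1%. Few heart-lung regions lay between the limits, and the quartiles of the lung fold were 0.132 and 12.4.

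In heart, 258 of 1376 heart-lung regions (18.8%) were at least 2-fold higher in EGFL7-high clusters, against 8.25% of all heart regions, 9.17% of the regions of heart alone and 18.3% of those heart shared with spleen alone. At most 0.5-fold were 524 (38.1%), against 31.1% of all heart regions and 62.3% of the regions of heart alone. The low share did not stay above its background under these 2 other choices of regions, at 44.6% against 57.9% and at 29.8% against 31.1%. With heart clusters 1 and 3 counted as EGFL7-high as well, 577 regions (41.9%) were at least 2-fold higher, against 20.9% of all heart regions, and 527 (38.3%) at most 0.5-fold, against 32.2%. The heart count thus moved more than 1.5 times with the clusters included, and it stayed above its background under both. Regions of heart and spleen alone were at 46.5% with these clusters, so a raised share in heart was not particular to the heart-lung regions.

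Many heart-lung regions had the same class in both organs. Of 1206 heart-lung regions with a fold in both, 199 (16.5%) were at least 2-fold higher in the EGFL7-high clusters of both organs, against 5.16% of all regions with both folds. At most 0.5-fold in both were 403 (33.4%), against 11.3%. With heart clusters 1 and 3 counted as EGFL7-high, 383 (31.8%) were high in both, against 11.4% of all regions. Without the regions that overlap a female liver peak, 116 of 834 (13.9%) were high in both, against 8.37% of all such regions, and 337 (40.4%) were low in both, against 33.5%. Opposite calls were fewer, with 16 regions (1.33%) high in heart and low in lung and 31 (2.57%) the other way, but these shares too were above those of all regions, 0.638% and 1.19%. Of the 230 regions high in heart, 86.5% were high in lung, where 40.7% of all 1206 were, and their median lung fold was 18.6. Over the other regions with peaks in both organs the same shares were 61.2% and 18.6%, so the 2 sets start from unequal shares and are not ranked. Of the 491 high in lung, 40.5% were high in heart, where 19.1% of the 1206 were, and their median heart fold was 1.78. Over the other regions these shares were 25.7% and 7.79%, with a median heart fold of 1.48, and they are not ranked either. The 582 regions low in lung had a median heart fold of 0.289, against 0.516 for the other regions low in lung. The log2 folds of heart and lung were held between folds of 0.05 and 20. They had an r of 0.69 and a rho of 0.704 over the 1206 heart-lung regions. Over the 35155 other regions with peaks in both organs these were 0.54 and 0.514. Regions of the same libraries are not independent, so these values carry no p.

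**Figure D3:**
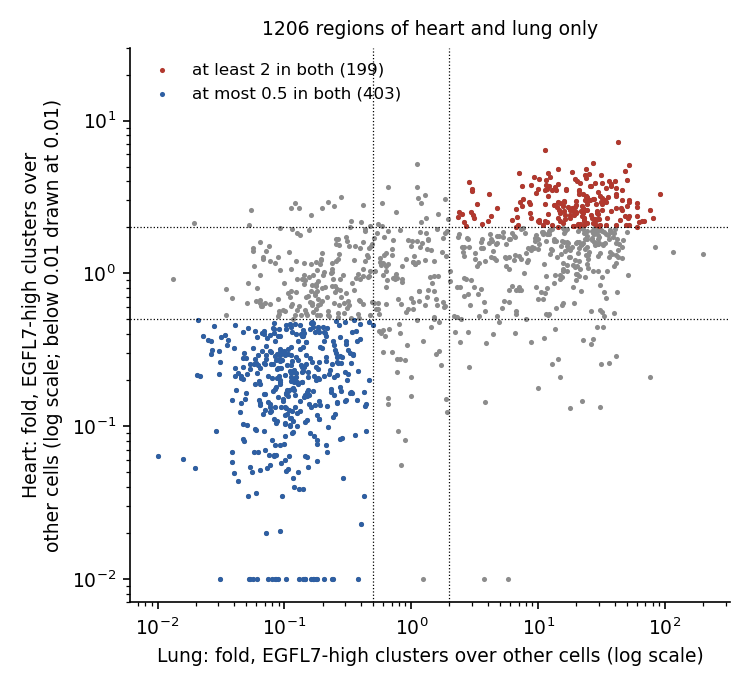
Each point is 1 of 1206 heart-lung regions, plotted by its fold in EGFL7-high clusters over other cells in lung (x axis, log scale) and in heart (y axis, log scale; values under 0.01 are drawn at 0.01). Dotted lines mark 0.5 and 2; 199 regions (red) lie at 2 or more in both organs, 403 (blue) at 0.5 or less in both, and few lie in the other corners.

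The 6 regions with the highest fold in both organs had between 2.53 and 7.56 CPM over the whole heart library and between 1.90 and 12 over the whole lung library. In lung most of their counts lay in EGFL7-high clusters, and in heart most lay in the other cells, which include cluster 1. Of the counts in the other heart cells, cluster 1 held 34 of 68 at chr10:63317739-63318636 and 126 of 166 at chr10:13429906-13430412. It held 56 of 87 at chr17:93894506-93895038, 184 of 230 at chr1:142723594-142724169 and 114 of 131 at chr5:1847135-1848097. At chr10:63317739-63318636, the EGFL7-high clusters of heart had 11.9 CPM (7.45 to 18.0) and the other heart cells 1.63 (1.13 to 2.28), a fold of 7.30. In lung the same region had 45.9 (41.6 to 50.4) and 1.07 (0.732 to 1.51), a fold of 42.8. A count was found in 13.4% of lung cells of the EGFL7-high clusters and in 0.403% of the others. At chr1:142723594-142724169 the levels were 28.4 and 5.51 in heart (5.15-fold) and 12.9 and 0.251 in lung (51.6-fold). The lung folds of the other 4 were 11.3 at chr10:13429906-13430412, 26.8 at chr17:93894506-93895038, 24.0 at chr5:1847135-1848097 and 14.5 at chr2:146513848-146514366, and their heart folds lay between 4.79 and 6.45. The lung folds depended on the clusters included. With cluster 9 alone counted as EGFL7-high, and clusters 3 and 10 among the other cells, they lay between 1.94 and 7.29, with chr1:142723594-142724169 at 1.94 (0.987 to 3.48), under the 2-fold limit. With the tenth of cells highest in the window they lay between 2.78 and 6.71, and the heart folds between 2.69 and 4.93. With doublets kept the lung folds lay between 9.88 and 28.5, and the heart folds between 4.51 and 6.48. With heart clusters 1 and 3 included, the heart fold was 24.1 at chr2:146513848-146514366, 18.7 at chr5:1847135-1848097, 13.2 at chr1:142723594-142724169, 9.01 at chr10:13429906-13430412 and 5.22 at chr17:93894506-93895038. At chr10:63317739-63318636 it was 4.19 (2.24 to 8.30).

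Among the 8 regions with the highest sums in both organs, chr17:93867256-93869219 was one with a high fold in both organs. In heart it had 111 CPM in EGFL7-high clusters (96.6 to 128) and 27.2 in the other cells (25 to 29.5), a fold of 4.09. In lung it had 82.4 (76.7 to 88.4) and 1.64 (1.21 to 2.17), a fold of 50.2. By cluster, heart reached 114 in cluster 5, 112 in cluster 1 and 100.1 in cluster 10 and stayed at or under 10.1 in the other 8. In lung it reached 102 in cluster 9, 98.0 in cluster 3 and 39.4 in cluster 10 and stayed at or under 6.67 elsewhere. Heart cluster 1, which the limit placed among the other cells, thus carried this region as strongly as the EGFL7-high clusters, and with clusters 1 and 3 included the heart fold was 19.4. The same cluster was the highest of heart for chr3:35596484-35599545 (90.1), a region with folds of 1.64 in heart and 15.3 in lung, which peaked in lung cluster 10 (149).

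At the other end, the 6 regions lowest in both organs had almost no counts in the EGFL7-high clusters. At chr5:57031628-57032840 no count was seen in the 682 EGFL7-high cells of heart (upper limit 1.99 CPM), and the other heart cells had 10.4 CPM (9.06 to 11.9). In lung, EGFL7-high clusters had 0.853 (0.368 to 1.68) and the other cells 27.3 (25.4 to 29.2). The region was highest in heart cluster 4 (25.5) and lung cluster 1 (72.3). At chr5:182410908-182411711 heart again had no count in EGFL7-high cells and 17.4 CPM in the others, and lung had 0.533 and 10.2. The remaining regions were chr8:9251571-9252068, chr6:54986908-54987343, chrX:32113623-32114117 and chr6:153703071-153703617. Each had 1 count in the EGFL7-high cells of heart and between 2 and 4 in those of lung, so their folds are known only within wide intervals. With the tenth of cells highest in the window, the heart fold of chr6:153703071-153703617 was 0.309 and the lung fold of chr6:54986908-54987343 was 0.301, with upper limits of 1.15 and 1.12. With doublets kept, the lung folds of these 6 regions lay between 0.061 and 0.166, where they lay between 0.0199 and 0.0525 without them. The lung fold of chr5:57031628-57032840 was then 0.134 (0.0976 to 0.180). Among the 8 regions with the highest sums in both organs, chr5:120979033-120980733 belonged with these, at 4.05 CPM in EGFL7-high clusters against 38.4 in heart and 3.84 against 26.3 in lung.

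Classes set in one organ could be read in the clusters of the other, whose cells had no part in the class. The 258 regions high in heart had 15.5, 12.4 and 16.0 CPM per region in lung clusters 3, 9 and 10, and between 0.739 and 2.44 in the other lung clusters. The 524 regions low in heart had 12.1 in lung cluster 2, 10.1 in cluster 4 and 7.56 in cluster 1, and 1.63, 1.92 and 1.80 in clusters 3, 9 and 10. In the other direction, the 572 regions high in lung had 13.8 in heart cluster 1, 14.0 in cluster 10, 10.7 in cluster 5 and 8.48 in cluster 3. The 694 regions low in lung were highest in heart clusters 4 (11), 6 (10.6) and 7 (9.39). Heart clusters 9 and 11 and lung clusters 5, 7, 11 and 12 were low for both classes.

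**Figure D4:**
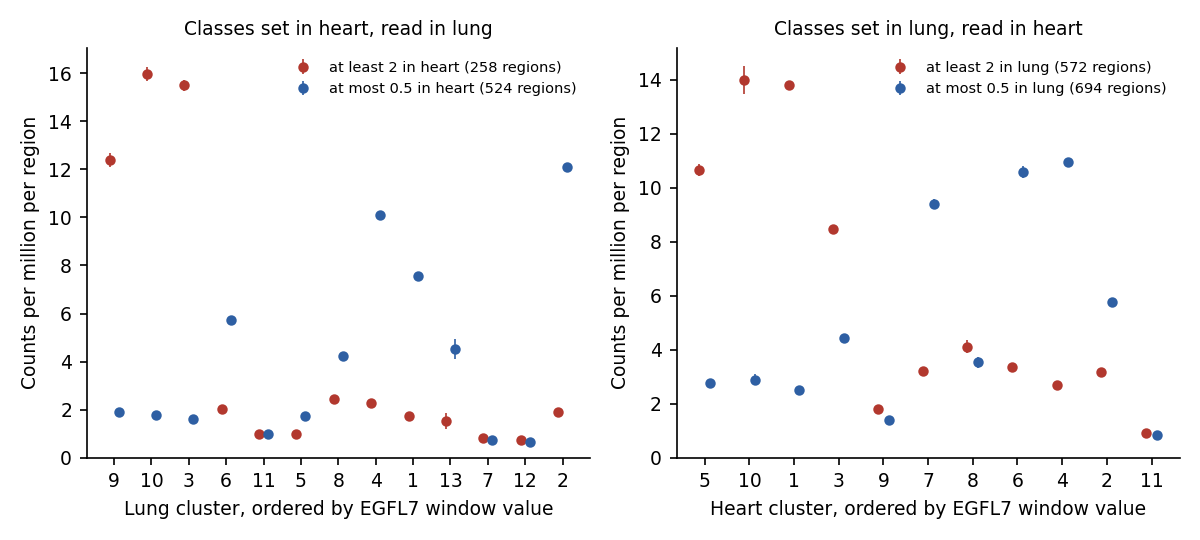
Points show the CPM per region of heart-lung regions in each lung cluster for classes set in heart (left) and in each heart cluster for classes set in lung (right); red, at least 2-fold in EGFL7-high clusters, blue, at most 0.5-fold, and bars are 95% Poisson intervals. Regions high in heart reached 12.4 to 16.0 in lung clusters 9, 10 and 3, and regions high in lung reached 8.48 to 14.0 in heart clusters 5, 10, 1 and 3.

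Clusters of the 2 organs were next compared by the log2 level of each region in a cluster relative to all clustered cells of the library, with 1 CPM added to both. Over the regions of all 7 organs, the lung cluster most like each heart cluster had an r of 0.33 (heart 3 with lung 3) to 0.76 (heart 11 with lung 7). By the 1206 heart-lung regions, 9 of the 11 heart clusters had the same most similar lung cluster. The r by heart-lung regions was 0.69 for heart 1 with lung 3, 0.64 for heart 5 with lung 9 (0.65 with lung 3), 0.62 for heart 10 with lung 3 and 0.58 for heart 4 with lung 2. It was 0.15 for heart 11 with lung 7, which was the most alike pair by the regions of all 7 organs and the one where heart-lung regions were nearly closed. Heart cluster 11 held only 886 counts in heart-lung regions, against 113406 in heart cluster 1. The part of counting error in this low r was not tested. The most frequent pairs of highest clusters were heart 1 with lung 10 (87 regions), heart 4 with lung 2 (85), heart 10 with lung 3 (69) and heart 10 with lung 10 (68). These correlations are over regions that share libraries and depth, and they are descriptive.

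The female liver library was not used to choose the regions and gave a further readout. Of the 1637 heart-lung regions, 469 (28.6%, 95% interval 26.5 to 30.9) overlapped a peak of female liver, against 13.0% of the regions of heart alone and 10.3% of those of lung alone. Pairs with spleen were higher, at 68.7% for lung and spleen alone and 39.8% for heart and spleen alone, and pairs with male liver at 62.3% for heart and 55.9% for lung. Colon with heart (26.2%, 23.5 to 29.2), colon with lung (24.1%, 22.0 to 26.3) and heart with uterus (22.5%, 18.9 to 26.5) were nearest to the heart-lung regions, and kidney with lung was the lowest pair with heart or lung, at 11.5%. When only peaks with a count in 1% of cells were merged, the share was 54.8% for the heart-lung regions, 23.3% and 24.6% for those of heart and lung alone, and 56.9% and 65.2% for colon with heart and colon with lung. The overlap differed between the classes. It was 41.7% (34.8 to 48.9) for the 199 regions high in both organs and 16.4% (12.9 to 20.4) for the 403 low in both. The intervals on these shares treat regions as independent draws, which regions of the same libraries are not. Over all regions with both folds, 296 of 1876 high in both and 1185 of 4123 low in both had no female liver peak. The low class overlapped less there too, so the contrast is not read as particular to the heart-lung regions. Female liver held 2373 counts in heart-lung regions in all. Only 379 of the regions held a count there, and the median was 4 counts where a peak overlapped, so many overlaps rest on few counts. Regions of heart or lung alone were also shorter than the heart-lung regions, and the part of width in their lower overlap was not tested.

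Cells of the female liver with at least 1000 counts were divided by whether they held a count in the EGFL7 window, 121 with and 607 without. The regions high in both heart and lung had 409 CPM (328 to 504) in the cells with a count there and 87.3 (67.8 to 111) in those without. The regions low in both had 53.1 (27.0 to 93.9) and 58.2 (42.5 to 77.9), intervals that overlap. The larger class of 694 regions low in lung had 243 (181 to 318) and 118 (95.4 to 145), and the 572 high in lung had 1123 (986 to 1273) and 279 (243 to 319). All 1637 heart-lung regions together, which include the high classes, had 1703 (1533 to 1886) and 514 (464 to 567). A higher level in cells with a count was thus also seen for the class low in lung, but not for the class low in both. Values for other female liver peaks are not given here. The cells with a count in the window were deeper, with a median of 2550 counts against 1948, and the part of depth was not tested.

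**Figure D5:**
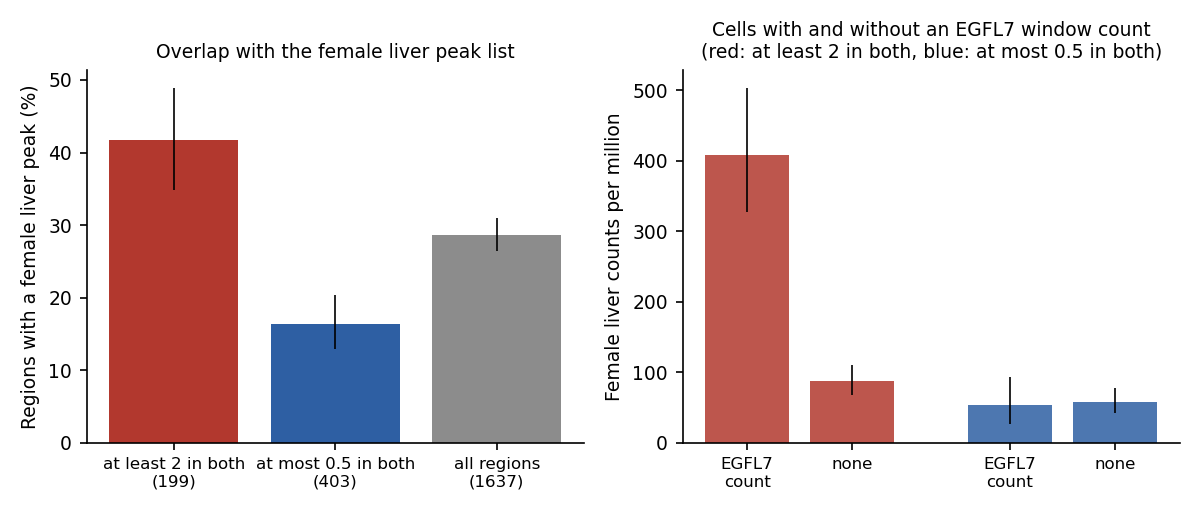
Left, the percent of heart-lung regions that overlap a female liver peak for regions at least 2-fold in the EGFL7-high clusters of both organs (red), at most 0.5-fold in both (blue) and all (grey), with 95% binomial intervals. Right, CPM of these classes in female liver cells with and without a count in the EGFL7 window, with 95% Poisson intervals; the red class was at 409 and 87.3, the blue at 53.1 and 58.2.

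Heart-lung regions that lay near each other often had the same class. The median gap between neighbours on a chromosome was 658519 bp. For neighbours at most 10000 bp apart, 42 of the 50 pairs that were both high or low in lung had the same class (84.0%), and 19 of 20 in heart. The share in lung was 76.6% of 145 pairs at most 50000 bp apart, 72.6% of 201 at most 100000 bp apart and 52.9% of 416 more than 1000000 bp apart. In heart it was 86.4% of 66, 80.9% of 94 and 62.6% of 171. The sets for 10000, 50000 and 100000 bp are nested. Shares for neighbours among other regions are not given here, so this likeness is not read as particular to the heart-lung regions.

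The densest stretch of 1 Mb was at 146 to 147 Mb of chromosome 6, with 12 heart-lung regions among 70 with both peaks. Of the 10 with a fold in lung, 6 were high and 3 low, and of the 11 with one in heart, 6 were high and 1 low. Over all heart-lung regions the shares were 40.3% high and 48.9% low in lung, and 18.8% and 38.1% in heart. Within it, chr6:146523345-146524616 was high (3.78-fold in heart and 8.86-fold in lung) and chr6:146529151-146530567, 4534 bp further on, was at 0.826 in heart and 0.178 in lung. Neighbours could therefore also differ. At 7 to 8 Mb of chromosome 4 lay 11 heart-lung regions among 31, with 1 high and 4 low of 8 in lung and 1 high and 3 low of 11 in heart, among them chr4:7759252-7760836, described above. At 93 to 94 Mb of chromosome 17 lay 8, all with both folds, of which 5 were high and 2 low in lung and 4 high and 1 low in heart. The last 3 of these 8 in order of position, chr17:93837036-93837600, chr17:93867256-93869219 and chr17:93894506-93895038, were high in both organs. The stretches at 65 to 66 Mb of chromosome 1 and at 0 to 1 Mb of chromosome 16 held 7 each. In the stretch of chromosome 16, 6 of 7 were high in lung and 3 of 5 high in heart.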

How the data were processed

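Single-cell ATAC-seq libraries (10x Genomics) of 8 organ samples were used, 1 per organ and animal. Per the labels, reads were processed with Cell Ranger ATAC 1.2.0. The authors deposited raw counts, the number of cut ends of a barcode in a peak, over peaks that were called for each library on its own. The build of these peaks is not stated in the sources used here (the study names macFas6 for its RNA data), and positions are those of the deposited peaks (1-based). The list of gene positions at hand is of another assembly, so no gene name or sequence is given for a region.

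Heart-lung regions were found as described in the report. CPM (counts per 1000000) were taken over barcodes with at least 1000 counts, with exact 95% Poisson intervals on counts divided by 2 and exact (Clopper-Pearson) binomial intervals for shares. For clustering, likely doublets were removed by scores against simulated doublets (2 per cell, 10 components, 50 neighbours), up to the squared number of cells divided by 100000. Regions of all 7 organs outside the EGFL7 window (located by the study) with a count in at least 1% of cells were weighted by inverse frequency and reduced to 30 components, without those correlated above 0.75 with depth. Leiden clusters (20 neighbours, resolution 0.8, leidenalg 0.10.2, igraph 0.11.9, scikit-learn 1.9.0, scipy 1.17.1, numpy 2.4.6) of at least 50 cells were used. Levels over whole libraries keep doublets, and levels per base of an organ's own peaks were added after the data were seen. Folds and concentration need at least 100 counts. Fold and concentration were tested on simulated counts.

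Named regions were the 8 with the highest lower level, the 6 highest and 6 lowest in both folds, the 4 most tilted each way, the densest stretches of 1 Mb (the 4th place was tied, so 5 are given), those nearest the limits, the 3 lowest and 3 highest in concentration over both organs and the widest. Regions in the EGFL7 window were dropped from the folds after the data were seen, as their counts help to choose the clusters. Other regions of the dense stretches and 2 regions given by class were chosen after their values were seen. The members and lists were chosen with earlier results of these data known.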

Additional observations from a re-analysis of the deposited data

How the results depend on the processing

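No paired analysis was possible because the heart and the lung had 1 library each. Of 124 recomputed summary values, 89 stayed within the interval of the main value (or 1.5 times for a count of regions) and 35 moved. Of 168 recomputed folds of named regions, 38 moved. Some values could not move. The lung clusters above the value of the library were the EGFL7-high ones, and all 13117 lung barcodes had at least 1000 counts. Intervals for the median concentration and the median share of cells were set on the cells of 1 median region. They do not measure the spread of a median over regions, so these tallies do not measure how stable the results are. The share low in heart went from above to below that of all regions in 2 cases, given below with their backgrounds. When heart and lung peaks had to share 50% of the shorter, the regions held 1.05% of heart and 0.782% of lung counts. When a peak of another organ within 500 bp excluded a region, these were 1.0% and 0.747%, and without likely doublets 1.06% and 0.792%, with a count in 1.35% of lung cells at the median. Without regions that overlap a female liver peak they were 0.714% and 0.566%, and 16.4% and 32.6% were at least 2-fold higher in EGFL7-high clusters of heart and lung, 44.6% and 56.6% at most 0.5-fold, and 116 regions high and 337 low in both. Over all such regions 8.84% and 12.7% were high and 57.9% and 77.3% low, with 8.37% high and 33.5% low in both. Merging only peaks with a count in 1% of cells gave 3802 regions, of which 1176 overlapped a heart-lung region (30.9% of these and 71.8% of the 1637). They held 3.02% and 2.31% of counts, with a count in 1.91% of lung cells at the median; 29.8% were low in heart, 43.9% high and 36.9% low in lung, 608 high and 829 low of 3539 in both, and 54.8% overlapped a female liver peak. Over all regions so merged 31.1% were low in heart, 14.6% high and 48.1% low in lung, and 5.14% high and 11.1% low in both. With counts not divided by 2, the concentration was 0.597 in heart and 0.589 in lung, since both ends of a fragment then count as separate draws. The share high in heart was 15.8% at resolution 0.4 (background 6.95%). With the highest cluster alone it was 15.6% (7.12%), and lung had 29.4% high (10.5%) and 43.5% low (42.1%). With the tenth of cells highest in the EGFL7 window and no clusters, 16.7% (7.05%) were high in heart, and 36.5% (11.3%) high and 43.3% (42.9%) low in lung. With heart clusters 1 and 3 included, an alternative chosen after seeing the data, 41.9% (20.9%) were high in heart and 383 (11.4%) in both. Except where a changed set of regions or cells is itself the alternative, the cause was not tested. Depth limits single regions, since the median heart-lung region had 258 counts in heart and 343 in lung.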
